A study of Mus musculus with 4 samples.

Results

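The 8 genes described here encode regulators and receptors of the melanocyte lineage: the transcription factors Mitf, Sox10, Pax3, Tfap2a and Mef2c, and the receptors Kit, Ednrb and Mc1r. They were taken by gene symbol from the array's annotation, and 8 of 8 were measured among 22180 genes. RNA came from B16-OVA, mouse melanoma cells engineered to make ovalbumin, in 2 groups of 2 arrays. Mock transfected cells formed the first group. The second had been transfected with AT90ES, which the study's description links to a double-stranded DNA of 90 nucleotides delivered with Lipofectamine, a cationic lipid, for 6 hours. The treatment text was shared by all 4 samples, and it does not say what the mock cells received. No label says that the replicates were separate cultures, so the p-values rest on a spread between arrays that may be technical. The cells form a single tumour line, not normal melanocytes.

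Melanocytes arise from the neural crest, and Mitf, a basic helix-loop-helix leucine zipper factor, is the master regulator of the lineage. Sox10, an HMG-box factor, and Pax3, a paired-box factor, both activate the Mitf promoter used in melanocytes. Mc1r, the receptor for melanocyte-stimulating hormone, raises cyclic AMP, which acts on the same promoter through CREB and a cAMP response element. Mitf protein in turn binds E-box motifs in its target genes.

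The promoters of Mitf and Mc1r are shown because they hold motifs of the kinds described above. RefSeq's promoter table (GRCm38.p6) gave 12 annotated starts for 6 of the 8 genes, each with 250 bases before the start and 50 after it. Sox10 and Pax3 had no entry. Mitf has 3 starts there, and the most downstream, which lies where the melanocyte promoter does, is the one shown. The lines below run 5′ to 3′ and end at the base before the start, on the plus strand at chr6:97991583-97991782 (Mitf, 200 bases) and chr8:123406982-123407081 (Mc1r, 100 bases). Capitals mark the cAMP response element TGACGTCA in Mitf and the E-box CATGTG, also read as CACATG on the other strand, in Mc1r.
Mitf: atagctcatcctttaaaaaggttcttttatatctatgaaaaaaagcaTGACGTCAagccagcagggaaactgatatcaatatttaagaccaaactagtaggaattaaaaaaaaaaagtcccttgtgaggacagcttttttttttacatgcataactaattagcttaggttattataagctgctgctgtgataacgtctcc
Mc1r: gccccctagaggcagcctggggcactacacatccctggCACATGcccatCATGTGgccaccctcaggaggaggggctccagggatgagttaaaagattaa

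TGACGTCA lay 153 to 146 bases before the Mitf start and in 1 of the 12 windows, against 1.79% of the table's 32851 windows. Mc1r held CATGTG at 62 to 57 and at 51 to 46 bases before its start, and 1 of the 12 windows held this motif, against 14.2% of all windows. The Sox motif ACAAAG was in 2 of the 12 windows, both of Mef2c, against 18.7%, while ACAATG (12.6% of all windows) and the E-box CACGTG (7.15%) were in 0. All motifs were searched on both strands, and none of them overlapped in these windows. The windows of the 2 Kit starts share most of their bases. A match describes the letters only. The array gave 1 value per probe set and does not tell the starts of Mitf apart.

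All 8 genes were set against the line's identity and against background. Of 13 measured melanosome pigment genes, 12 had a mean above background. Dct, which encodes dopachrome tautomerase, had mean log2 levels of 12.91 (mock) and 12.87 (AT90ES), and Tyrp1, another melanin enzyme, 12.77 and 12.78. Levels were lower for Gpr143, at a mean of 7.60, and Tyr, at 6.97, and Oca2, at 4.37, lay under background. Background was taken as the 95th percentile of 1105 olfactory receptor genes, which was 4.85 to 5.07 over the 4 arrays. Lists of markers were read for 7 other cell types. Their brightest genes were Krt10 (keratinocytes) at a mean of 5.02, Cd68 (myeloid cells) at 6.34 and Nkg7 (lymphocytes) at 5.28. Col1a2 (fibroblasts) was at 6.15, Cdh5 (endothelium) at 5.30, Hdc (mast cells) at 5.11 and Erbb3 (Schwann cells and glia) at 9.37. Such a list need not be specific to its cell type. Foxd3, on the Schwann cell and glial list, is also among the relatives and partners of the lineage factors read below. The chemokine gene Ccl5 and the antiviral gene Ifit1 were higher in AT90ES than in mock cells, with log2 differences of 6.32 and 6.05 (limma adjusted p = 8.48e-05 for each).

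Of the 8 genes, 5 were lower on both AT90ES arrays than on both mock arrays, 0 were higher on both, and 3 overlapped. Among all genes 22.1% were lower on both AT90ES arrays and 17.7% were higher. The 5 were Mef2c, Mc1r, Mitf, Tfap2a and Pax3, in order of the size of the difference. Limma, which moderates each gene's spread by that of all genes, called 0 of the 8 higher and 0 lower at an adjusted p under 0.05, against 0.415% and 0% of all genes. At an unadjusted p under 0.05 it had 3 of the 8 lower, Mef2c, Mc1r and Mitf, against 4.59% of all genes. The calls depended on how the spread was modelled. With a spread that was allowed to vary with intensity, limma called 4 of the 8 lower (Mef2c, Mc1r, Mitf and Tfap2a) and 0 higher, against 0.73% and 1.94% of all genes. With genes whose mean lay at or below background left out as well, it called the same 4 lower and 0 higher, against 250 and 497 of 12996 genes. Under the trend the SE fell for these 4, which lay at percentiles 88.7 to 98.5 by mean level. A share among genes of like brightness was not computed. The median log2 difference of the 8 was -0.20, and that of all genes was -0.02.

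**Figure D1:**
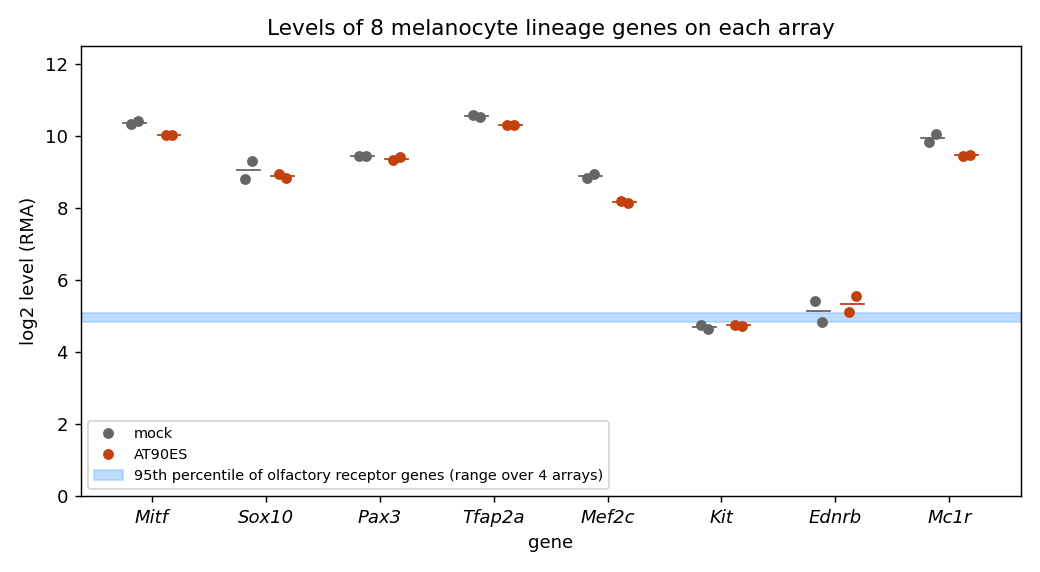
Log2 level (RMA, vertical axis) of each gene on the 2 mock arrays (grey) and the 2 AT90ES arrays (orange), with short lines at the group means and a blue band at the 95th percentile of olfactory receptor genes (4.85 to 5.07). The points of Mef2c, Mc1r, Mitf and Tfap2a separate by group, and Kit lies under the band on all 4 arrays.

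With arrays centred on 7 reference genes the same 5 genes were lower on both AT90ES arrays, while the share of all genes that were so grew to 33.3%, against 10.9% higher. With arrays centred on their median 4 were lower, without Pax3, and Kit was higher on both AT90ES arrays, against 16.7% and 17.9% of all genes. At an unadjusted p under 0.05 the numbers of all genes higher and lower were 999 and 1017 as deposited, 686 and 1877 centred on reference genes, and 1015 and 655 centred on the median. The members lower by that measure numbered 3, 4 and 2 in the same order.

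Mef2c showed the largest difference among the members. It encodes a MADS-box transcription factor that acts in neural crest and melanocyte development as well as in muscle. On the log2 scale its level was 8.82 and 8.93 in mock against 8.19 and 8.13 in AT90ES cells. Both AT90ES values lay 0.63 or more below both mock values, while arrays within a group lay 0.11 (mock) and 0.06 (AT90ES) apart. The difference was -0.72 ± 0.12 (SE), a 1.64-fold lower level, with a 95% interval of -1.01 to -0.42 (limma adjusted p = 0.152). With an intensity trend the adjusted p was 4.26e-04, and with genes at or below the olfactory level left out it was 0.0431. On the scale of places among all genes, Mef2c went from percentiles 91.4 and 91.8 in mock to 84.9 and 85.0 in AT90ES cells. By size, 45 of 22180 genes had a lower difference, and 11 of the 12996 genes with a mean above the olfactory level.

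The array carries 2 probe sets for Mef2c, the only member with more than 1. The dimmer probe set read 7.15 and 7.32 in mock against 6.81 and 6.96 in AT90ES cells. Both probe sets were lower on each AT90ES array than on each mock array, but their differences were unequal, at -0.72 for the brighter and -0.35 for the dimmer. The mean of the Mef2c probe sets gave -0.53 (limma adjusted p = 0.310). With every probe set on the array tested separately, the limma adjusted p was 0.453 for the brighter and 0.734 for the dimmer.

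Mitf, the regulator of pigment, survival and cell cycle genes in this lineage, had log2 levels of 10.33 and 10.40 in mock cells and 10.02 and 10.02 in AT90ES cells. The groups did not overlap, and the nearest values lay 0.30 apart. The mean went from 10.37 ± 0.05 to 10.02 ± 0.0041 (SD, n = 2 arrays per group), a difference of -0.34 ± 0.11 (SE) with a 95% interval of -0.63 to -0.06. That corresponds to a 1.27-fold lower level. The limma adjusted p was 0.469, and 0.00483 with an intensity trend, under which the SE of Mitf was 0.06. Mitf remained among the brightest genes in both groups, at percentiles 98.3 and 98.4 in mock and 97.3 and 97.4 in AT90ES cells.

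Tfap2a encodes AP-2 alpha, a neural crest factor that binds many melanocyte enhancers together with Mitf. Its log2 levels were 10.59 and 10.52 in mock cells and 10.31 and 10.32 in AT90ES cells. The groups were separate by 0.20, and the difference was -0.24 ± 0.11 (SE), with a 95% interval of -0.53 to 0.04 (limma adjusted p = 0.605, and 0.0329 with an intensity trend). Tfap2a had the highest percentile by mean level of the 8 genes, at 98.5. A probe's brightness also depends on its sequence, so such a place is not an order of RNA abundance.

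Both upstream activators of Mitf gave smaller differences. Pax3 was at 9.45 and 9.44 in mock cells and at 9.34 and 9.40 in AT90ES cells, separate by 0.03 only. Its difference was -0.07, with a 95% interval of -0.35 to 0.21 (limma adjusted p = 0.900). Sox10 was at 8.81 and 9.30 in mock cells and at 8.95 and 8.84 in AT90ES cells. The mock arrays of Sox10 lay 0.49 apart, more than the difference of -0.16 between the groups, whose 95% interval was -0.62 to 0.31 (limma adjusted p = 0.854). Without mock replicate 2 the difference of Sox10 was 0.09, and without mock replicate 1 it was -0.40, so its sign rested on that pair of arrays. With an intensity trend the intervals were -0.22 to 0.08 for Pax3 and -0.43 to 0.12 for Sox10. The first leaves out a difference as large as that of Mitf and the second includes it, while without the trend both include it.

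Among the receptors, Mc1r had the largest difference. Mc1r, the melanocortin receptor that switches melanocytes to dark pigment, stood at 9.83 and 10.05 in mock cells and at 9.44 and 9.48 in AT90ES cells. The groups were separate by 0.35, and the mock arrays lay 0.22 apart. The difference was -0.48 ± 0.13 (SE), a 1.39-fold lower level, with a 95% interval of -0.80 to -0.15 (limma adjusted p = 0.393). With an intensity trend the limma adjusted p was 0.0037. By the order of differences, 348 of all genes lay below Mc1r, and 135 of those above the olfactory level.

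Kit and Ednrb, the receptors for stem cell factor and for endothelins, were near background. Kit, a receptor tyrosine kinase needed for melanoblast survival and migration, had log2 levels of 4.75 and 4.63 in mock cells and 4.77 and 4.74 in AT90ES cells. It lay under the olfactory level on all 4 arrays, so a change in Kit could go unseen, and its difference of 0.06 had a 95% interval of -0.23 to 0.35 (limma adjusted p = 0.925) and was -0.01 with arrays centred on reference genes. Ednrb, the endothelin receptor of early melanoblasts, was at 5.43 and 4.84 in mock cells and at 5.12 and 5.55 in AT90ES cells. The arrays of Ednrb lay 0.59 apart within mock and 0.43 apart within AT90ES, more than its difference of 0.20 between them (95% interval -0.40 to 0.81, limma adjusted p = 0.853). The difference of Ednrb was 0.50 when mock replicate 1 was left out, -0.09 when mock replicate 2 was, and -0.01 when AT90ES replicate 2 was, so its sign rested on single arrays. Ednrb lay over the olfactory level on 3 of the 4 arrays. By mean level Kit was at percentile 37.5 and Ednrb at 49.2, against 88.7 to 98.5 for the other 6 genes.

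**Figure D2:**
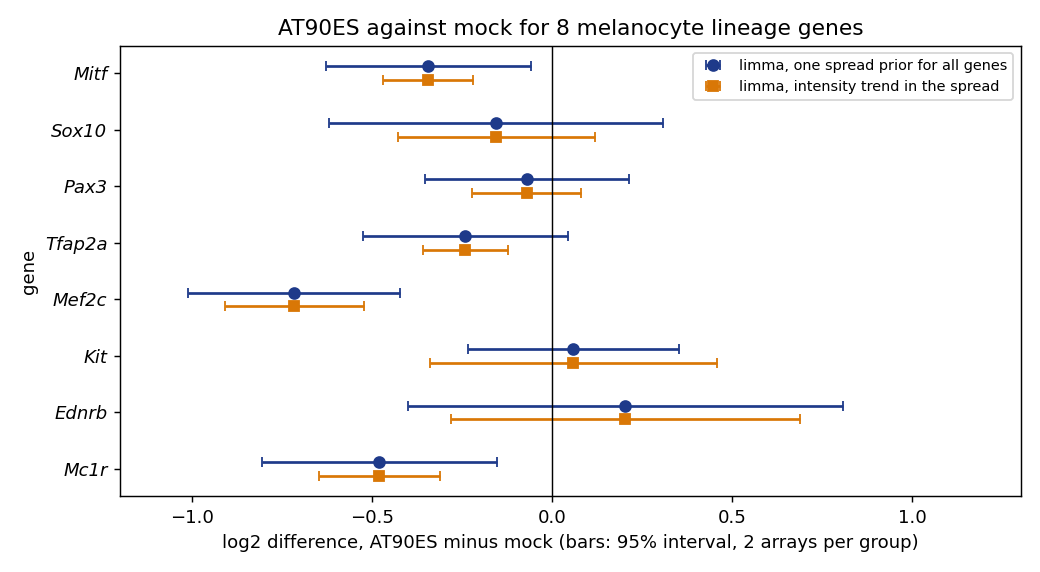
Log2 difference, AT90ES minus mock (horizontal axis), of each gene with its 95% interval from limma, with the same prior spread for every gene (blue circles) and with an intensity trend in the spread (orange squares). The intervals of Mef2c, Mc1r and Mitf lie below 0 in both fits, that of Tfap2a in the second only, and the others include 0.

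The intensity trend narrowed the intervals of 7 of the genes and widened that of Kit. Under it the SE went from 0.12 to 0.09 for Mef2c, from 0.13 to 0.08 for Mc1r, from 0.11 to 0.05 for Tfap2a, and from 0.12 to 0.18 for Kit. The calls under the trend also rested on single arrays. Without mock replicate 2 it called only Mef2c, without mock replicate 1 it called Mef2c, Mc1r and Mitf, and without either AT90ES array it called the same 4. The adjusted p of Mef2c was 0.00436 at most in these 4 fits, and those of Mc1r, Mitf and Tfap2a reached 0.0501, 0.0714 and 0.316. Without a trend, leaving out any array gave 0 of the 8 past the threshold.

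**Figure D3:**
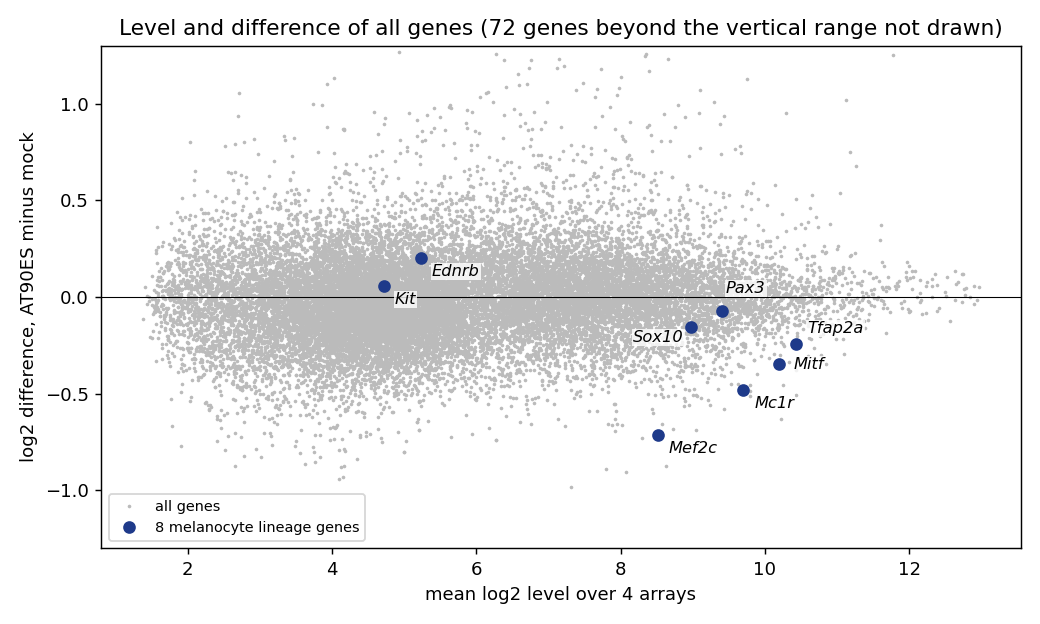
Mean log2 level over the 4 arrays (horizontal axis) against the log2 difference, AT90ES minus mock (vertical axis), for all genes (grey) and the 8 lineage genes (blue). The vertical axis ends at 1.3 in each direction, and 72 genes beyond it are not drawn. Mef2c, Mc1r, Mitf and Tfap2a lie below 0 at the right of the plot, at -0.72, -0.48, -0.34 and -0.24.

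The genes whose pattern over the 4 arrays was most like that of Mitf were Mcm5, Troap and Ccna2. Likeness was the Euclidean distance between log2 deviations from each gene's own mean, among 1282 named genes with a mean level within 1 log2 unit of Mitf. The distances were 0.047, 0.048 and 0.052, and the log2 differences of the 3 genes were -0.39, -0.36 and -0.33, none past the threshold without an intensity trend (limma adjusted p = 0.436, 0.457 and 0.490). Of the other members, Tfap2a was the nearest to Mitf by this measure at 0.15, followed by Mc1r at 0.17, and 64 and 97 of the 1282 genes were nearer than these. The measure depends on the size of a difference as well as its direction. Pax3 lay at 0.28, Sox10 at 0.36, Mef2c at 0.38, Kit at 0.43 and Ednrb at 0.78.

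The ligands of the 3 receptors and other genes of the pathway were read from lists. Of 5 measured ligand genes, 0 were higher and 0 lower in limma, against 0.415% and 0% of all genes. At an unadjusted p under 0.05, 1 was higher and 1 lower, against 999 and 1017 of all 22180 genes. Kitl, which encodes stem cell factor, had a difference of 0.42, Pomc, the precursor of melanocyte-stimulating hormone, 0.42, Edn1 -0.52, Edn2 -0.18 and Edn3, the endothelin of melanoblasts, -0.00057. Kitl and Edn1 lay under the olfactory level on all 4 arrays. Pomc lay under it on both mock arrays, at 4.82 and 4.48, and over it on both AT90ES arrays, at 5.12 and 5.02 (limma adjusted p = 0.514). The olfactory level itself differed by array, at 5.07 and 4.93 in mock and at 4.85 and 4.92 in AT90ES cells. Asip, the antagonist of Mc1r, was not analysed here.

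Of 18 measured relatives and partners of the 5 transcription factors, 0 were higher and 0 lower in limma, with a median difference of 0.03. At an unadjusted p under 0.05, 2 were higher and 0 lower, against 999 and 1017 of all 22180 genes. Mef2a and Mef2d, the brightest of the list and relatives of Mef2c, had differences of 0.23 and 0.03, against the -0.72 of Mef2c. The relation between the Mef2 genes was not tested. Tfe3, a close relative of Mitf, stood at 8.27 and 8.47 in mock cells and at 8.78 and 8.58 in AT90ES cells, a difference of 0.31 (limma adjusted p = 0.585). Sox9, a relative of Sox10, had a difference of 0.44, and Snai2, a neural crest factor, of 0.33 (limma adjusted p = 0.375 and 0.489). With Mef2a these made 4 of the 18 that were higher on both AT90ES arrays than on both mock arrays, against 17.7% of all genes. Another 3 were lower on both, against 22.1% of all genes. They were Irf4, a pigment cell factor, at -0.35, Tbx2, a T-box repressor, at -0.29 and Sox2 at -0.25. Irf4 and Sox2 had means under the olfactory level. Apart from Mef2a and Mef2d, these genes were picked after seeing their values.

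Of 27 measured genes of receptor signalling, from G proteins and adenylyl cyclases to the MAP kinase cascade, 0 were higher and 0 lower in limma. At an unadjusted p under 0.05, 1 was lower, against 4.59% of all genes. The list's median difference was -0.02. Map2k2, a MAP kinase kinase, had a difference of -0.02, and Gna11, a G protein subunit, of -0.07. Adcy7, an adenylyl cyclase named after its values were seen, stood at 7.71 and 7.68 in mock cells and at 7.17 and 7.20 in AT90ES cells. Its difference of -0.51 was the only one on the list past the threshold with an intensity trend (limma adjusted p = 0.0255, and 0.303 without the trend). With the trend 0.73% of all genes were called lower.

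A list of genes known as targets of Mitf had 17 measured. It is only part of the known targets, as Mitf also regulates pigment genes, which were read as a separate list below. Of the 17, limma called 1 higher and 0 lower, against 0.415% and 0% of all genes, and the list's median difference was -0.03. The called gene was Cdkn1a, a brake on the cell cycle that p53 also activates, which rose by 1.26 ± 0.13 (SE) on the log2 scale (limma adjusted p = 0.0347). Leaving out any 1 of the 4 arrays gave differences of 1.14 to 1.37 with adjusted p from 0.131 to 0.202, and centring on reference genes gave 1.19 with an adjusted p of 0.0523. With an intensity trend the limma adjusted p of Cdkn1a was 3.91e-08, and the call held without each array. At an unadjusted p under 0.05, 999 of all 22180 genes were higher and 1017 lower, and of the 17, 2 were higher and 1 lower. Besides Cdkn1a these were Vat1, at 0.51 (limma adjusted p = 0.328, and 2.41e-04 with an intensity trend), and Cdkn2a, which encodes cell cycle inhibitors, at -0.37 (limma adjusted p = 0.522, and 0.406 with the trend), both named after their values were seen. Of 13 measured melanosome pigment genes, 0 were higher and 0 lower, also at an unadjusted p under 0.05. Their median difference was 0.01. Dct had a difference of -0.04, Tyrp1 of 0.01 and Tyr of -0.05. With an intensity trend 1 was called lower, against 0.73% of all genes. It was Mlph, a melanosome transport gene, at -0.35 (limma adjusted p = 0.0242, and 0.554 without the trend). The pigment genes other than Dct and Tyrp1 were picked after seeing their values.

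**Figure D4:**
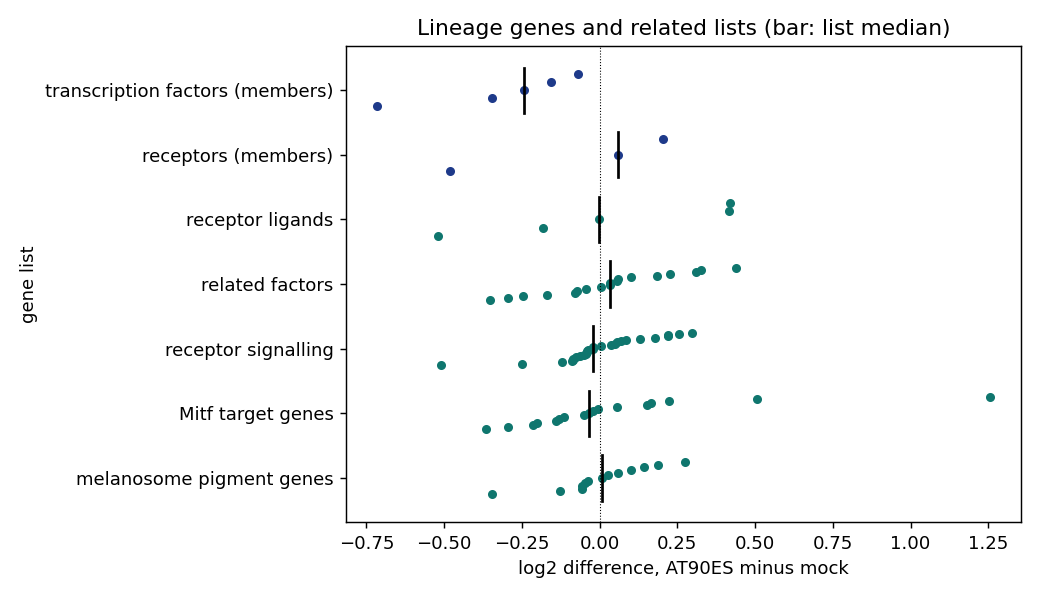
Log2 difference, AT90ES minus mock (horizontal axis), of each measured gene in 7 lists, 1 point per gene, with a black bar at each list's median. The 5 transcription factors all lie below 0, the receptors lie on both sides of it, and the medians of the related lists lie between -0.03 and 0.03.

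Some genes on the marker lists differed between the groups beside these genes. Of 6 markers of mast cells, a cell type that also expresses Kit, 1 was called higher, against 0.415% of all genes. This was Hdc, histidine decarboxylase, at 4.23 and 4.30 in mock cells and at 5.98 and 5.93 in AT90ES cells. Hdc rose by 1.69 from under the olfactory level (limma adjusted p = 0.00719, and 8.07e-05 with an intensity trend). Without AT90ES replicate 1 or 2 the difference was 1.67 or 1.71, with a limma adjusted p of 0.0716 or 0.0562. The list's mean log2 level was 3.24 and 3.26 in mock and 3.54 and 3.56 in AT90ES cells, and its median difference was 0.04. The other 5, Cpa3 and Fcer1a among them, had differences of -0.03 to 0.09 and mean levels under the olfactory level. The 8 myeloid markers had 0 called, with list means of 5.14 and 5.09 in mock and 4.86 and 5.05 in AT90ES cells. Of the 8, 6 had negative differences, and the median was -0.15. On both AT90ES arrays 4 were lower and 0 higher than on both mock arrays, against 22.1% and 17.7% of all genes. At an unadjusted p under 0.05, 1 was lower, against 4.59% of all genes. Of 5 measured Schwann cell and glial markers 0 were called, and their list means were 6.73 and 6.73 in mock and 6.67 and 6.57 in AT90ES cells. Of the 5, 4 had negative differences, and the median was -0.18. Erbb3, the brightest, had the only positive difference, 0.45 (limma adjusted p = 0.369, and 0.00281 with an intensity trend). The part of these markers in the results above was not tested.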

How the data were processed

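The authors deposited a log2 level for each of 41345 probe sets on each of 4 arrays, with RMA as the method per the submitters' processing notes. Its software, settings and genome build are not given in the sources used here. RMA equalises the arrays, so differences are relative to the other genes. The number of arrays limits the precision.

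Probe sets were named from the platform's annotation: 23521 had 1 symbol, 1814 several and 16010 none, and the last 2 kinds were left out. The brightest probe set stood for a gene. AT90ES was compared with mock across all 22180 genes in limma 3.58.1 under R 4.3.3 (lmFit, eBayes, no covariate, no filter), two-sided, with Benjamini-Hochberg adjustment and a threshold of 0.05. The fit had 2 residual degrees of freedom, to which the shared spread added 3.70. An exact permutation test of 2 against 2 arrays cannot go below p = 0.333. The steps were tested on simulated data.

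The members, lists and tests were chosen with earlier results of these data known. Named genes are the 8 members, all ligands, up to 4 called genes per pathway list or its 2 brightest, the brightest marker per cell type, Ccl5, Ifit1 and the 3 genes nearest to Mitf. Others are said to be named after their values were seen. A reversal counts only where a value passed the threshold before or after. Alternatives changed the spread model, filter, scaling, probe rule, pairing and arrays.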

Additional observations from a re-analysis of the deposited data

How the results depend on the processing

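No value that passed the threshold before or after changed sign among the 706 alternative values of the 45 named genes, of which 641 kept their side of the threshold, 57 passed only in the alternative and 8 lost the call. Genes called numbered 431 higher and 162 lower with an intensity trend, 160 and 6 with dim genes left out, 497 and 250 with both, and 172 and 4 with arrays centred on their median, against 92 and 0. Members called lower numbered 4 with the trend, 1 with dim genes left out (Mef2c) and 4 with both, against 0. Leaving out 1 array gave 32 to 47 genes higher and 0 lower without the trend, and 297 to 626 higher and 75 to 333 lower with it, with 0 and 1 to 4 members lower. The lone array is then assumed to vary like the other group. The combined settings and the crossed pairing were chosen after seeing the data.

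Replicate numbers were shared by the groups, but deviations of same-numbered arrays correlated at -0.22 across genes, so the numbers do not show pairs. With the replicate block 85 genes were higher, 0 lower and 0 members called, and with crossed numbers 59, 0 and 0. The causes of these changes were not tested.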
